A study of Mus musculus with 6 samples.

Results

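The interferon response and MHC class I antigen presentation were described in B16F10 cells, a mouse melanoma line, through 40 genes named for their place in these pathways. Each gene was found by its NCBI Gene identifier, and all 40 had a row among the 16315 genes of the deposited table. SAS cells received a compound known from the labels by that abbreviation alone for 24 h, with 500 given as its concentration (unit written μm), and vehicle cells received 0.05% DMSO. Each group held 3 libraries of total RNA. The strain label of both groups is C57BL/6, and no genetic change is labelled in either. The title of the series names inhibition of xCT, a cystine transporter, and the comparison asks how the transcriptome of SAS cells differs from that of vehicle cells. The protocol gives 24 h of incubation for both groups, but the table's columns call the vehicle libraries 0 h. If 0 h means cells collected before incubation, a day of culture and the compound cannot be told apart.

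Interferons are secreted proteins that act through receptor pairs on the cell surface. Type I interferons bind IFNAR1 and IFNAR2, and interferon gamma binds IFNGR1 and IFNGR2. Janus kinases bound to these receptors phosphorylate STAT proteins. A complex of STAT proteins with IRF9 then binds the interferon-stimulated response element in the promoters of antiviral genes, and STAT proteins also bind a shorter palindrome, the GAS element. Many genes of MHC class I presentation are also interferon-inducible. Their products cut proteins into peptides (proteasome), carry peptides into the endoplasmic reticulum (TAP1 and TAP2), load them (tapasin) and show them at the surface on a heavy chain bound to beta-2-microglobulin. B16 melanoma cells are known as a line with little class I on the surface unless interferon is given.

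The libraries matched their label. All 8 melanocyte markers had a mean of at least 1 FPKM (fragments per unit of transcript length and of library total, the deposited unit), and their summed level was 8830 to 10700 FPKM in SAS and 7460 to 8410 FPKM in vehicle. Of 9 macrophage and monocyte markers, 4 had a row and summed to 4.72 to 4.95 FPKM in SAS against 2.47 to 3.04 FPKM in vehicle. Cd68 and Lyz2 carried that sum, and both rose (limma adjusted p = 0.000144 and 0.00249), Lyz2 reaching the filter in SAS alone, whereas the defining receptors Csf1r and Cd14 were at most 0.05 FPKM in any library. Lymphocyte markers with a row (4 of 9) summed to 0.29 to 0.47 FPKM in SAS and 0.28 to 0.42 FPKM in vehicle. Dendritic cell markers with a row (3 of 5) summed to 1.49 to 1.71 FPKM in SAS and 1.61 to 1.86 FPKM in vehicle, nearly all of it Zbtb46. Fibroblast markers (4 of 5 with a row) summed to 0.86 to 0.96 FPKM in SAS and 1.16 to 1.41 FPKM in vehicle, and endothelial markers (3 of 4) to at most 0.05 FPKM. The markers without a row were not analysed here. In bulk RNA, fewer cells of a type and less RNA per cell cannot be told apart. The number of fragments behind the values is unknown, and FPKM summed to 590238 to 617275 in each library whatever its depth.

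Most of the response genes were weakly expressed in both groups, and most members that could be tested did not pass the test. Members that rose in SAS were the RNA sensor gene Ddx58, the interferon-stimulated genes Rsad2, Ifi27 and Ifi35, the class I heavy chain gene H2-D1 and the tapasin gene Tapbp. Ifit2, which encodes an RNA-binding antiviral protein, fell. No member that passed changed 2-fold on the scale of the test, and the highest absolute log2 fold change among tested members was 0.469, for Ifi27.

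Of the 40 members, 28 had a mean of at least 0.5 FPKM over the 6 libraries and entered the test, a limma fit of log2(FPKM + 1) over all 10615 genes that met this filter. Of these 28, 6 rose and 1 fell at a Benjamini-Hochberg adjusted p below 0.05, together 25.0%, against 37.4% of all genes tested. By direction, 21.4% of tested members rose against 18.9% of all genes tested, and 3.57% fell against 18.5%. The share that rose is thus near the background, and the shares were not tested against each other. The median log2 fold change was 0.071 over the tested members and -0.014 over all genes tested. The median absolute log2 fold change was 0.127 over the tested members and 0.15 over all genes. Groups did not overlap for 7 tested members that were higher in SAS (24.5% of all genes tested did this) and for 2 that were lower (24.9% of all genes; 49.4% in either direction). A member that did not pass is not shown to be equal in the groups. The pseudocount of 1 makes fold changes of low genes look smaller than they are. Folds and their intervals given below come from this fit on FPKM + 1, so they differ from ratios of the FPKM values printed beside them.

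**Figure D1:**
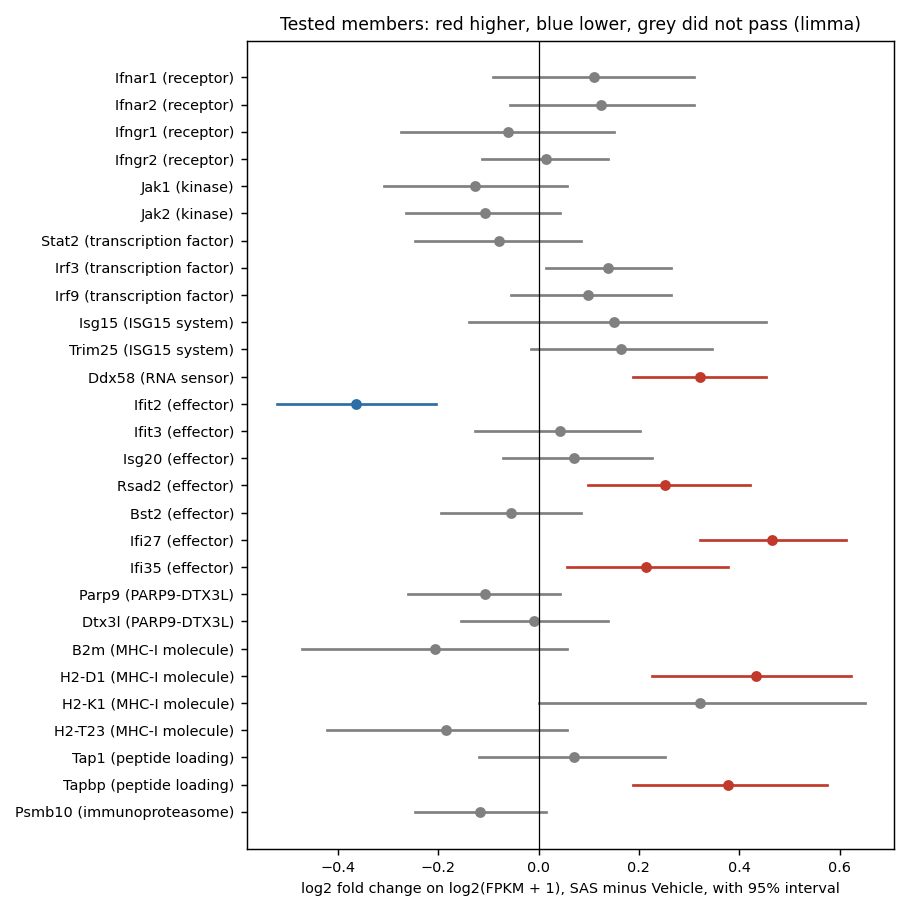
Log2 fold change of each tested member on the log2(FPKM + 1) scale, SAS minus vehicle (x axis), with its 95% interval from limma, ordered by role. The 6 members that rose (red) and Ifit2, which fell (blue), stand clear of 0, while the intervals of most other members (grey) cross 0.

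By level, 7 members averaged at least 20 FPKM, 7 lay from 5 to 20 FPKM, 8 from 1 to 5 FPKM, 6 from 0.5 to 1 FPKM and 12 below 0.5 FPKM. FPKM is scaled to transcript length, so these levels can be set side by side between genes. The highest were B2m, H2-D1, Ifngr2, Irf3, Bst2, Ifnar2 and Ifi27. These are class I chains, receptor chains, the transcription factor gene Irf3 and the effector genes Bst2 and Ifi27. The classical induced genes Ifit1, Oasl2, Usp18, Irf7 and Ifi44 were among the 12 members below 0.5 FPKM.

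**Figure D2:**
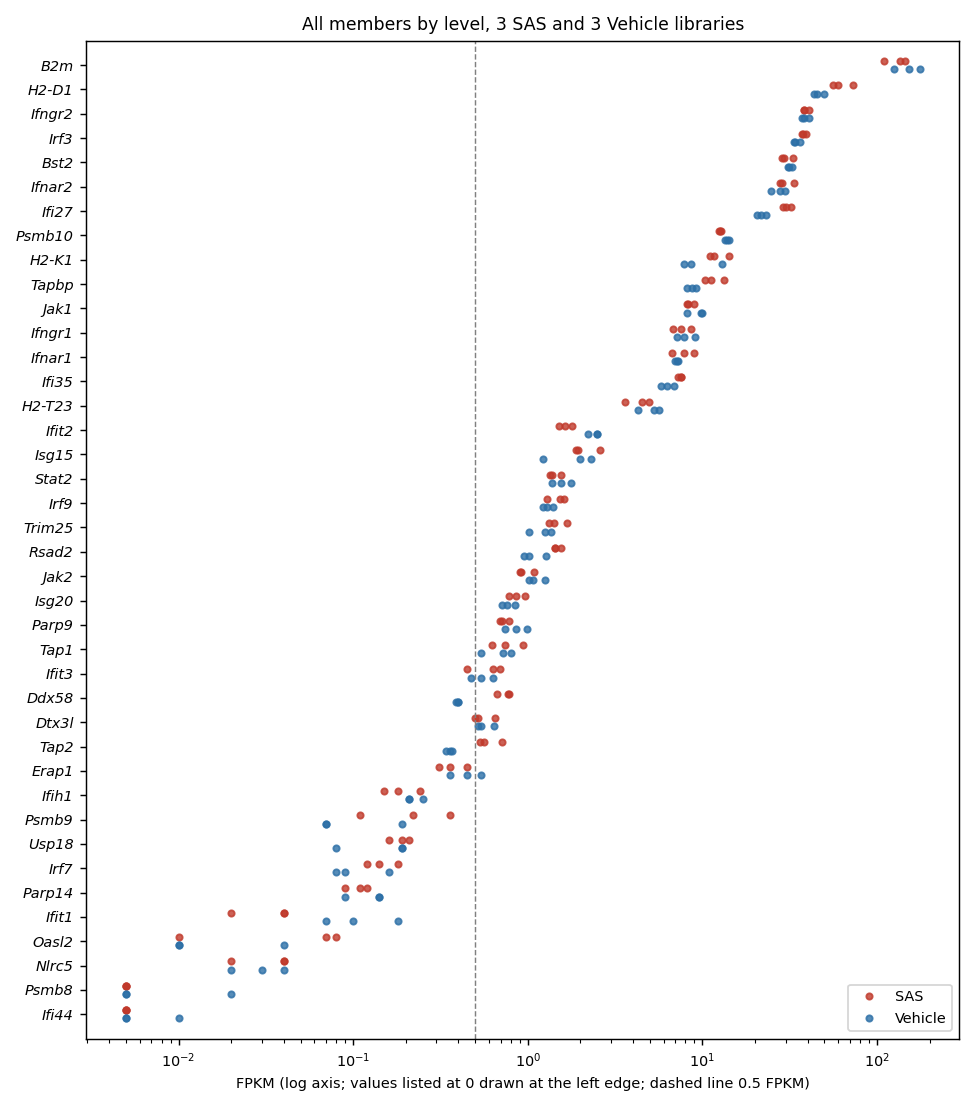
FPKM of all 40 members (log axis) in the 3 SAS libraries (red) and the 3 vehicle libraries (blue), ordered by mean level, with values listed at 0 drawn at the left edge. B2m and H2-D1 lie at the top, and 12 members average below the 0.5 FPKM filter (dashed line).

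None of the 4 receptor genes passed the test in either direction. Values of single libraries are given below in the order of replicates 1, 2 and 3. Ifnar2, the signalling chain of the type I receptor, had 27.99, 28.64 and 33.53 FPKM in SAS, against 24.61, 27.96 and 29.68 FPKM in vehicle, and the groups overlapped (fold 1.09, 95% interval 0.961 to 1.24, limma adjusted p = 0.254). With array weights, which give less weight to more variable libraries, Ifnar2 passed (adjusted p = 0.0392). Ifngr2, the accessory chain of the interferon gamma receptor, had 38.08, 40.97 and 38.34 FPKM in SAS, against 37.36, 38.29 and 40.67 FPKM in vehicle. Its ranges were nearly the same (fold 1.01, 95% interval 0.924 to 1.10, limma adjusted p = 0.876). The partner chains were lower in level. Ifnar1 averaged 7.82 ± 1.17 FPKM in SAS and 7.14 ± 0.123 FPKM in vehicle (mean ± SD of 3 libraries here and below). Ifngr1 averaged 7.63 ± 0.906 FPKM in SAS and 8.01 ± 0.978 FPKM in vehicle.

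The receptor kinases among the members did not pass either. Jak1, which serves both receptor types, averaged 8.45 ± 0.437 FPKM in SAS and 9.34 ± 1.02 FPKM in vehicle (fold 0.916, 95% interval 0.808 to 1.04). Jak2, which serves the interferon gamma receptor, averaged 0.963 ± 0.101 FPKM in SAS and 1.12 ± 0.127 FPKM in vehicle. Tyk2, a Janus kinase outside the members that is counted in the sensing list below, did pass. It rose to 11.3 ± 0.71 FPKM in SAS, against 9.36 ± 0.551 FPKM in vehicle (fold 1.19, limma adjusted p = 0.0175).

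Of the transcription factors, Irf3 was by far the most abundant. Irf3 is present before any stimulus and starts interferon production once phosphorylated. It had 39.38, 37.83 and 37.22 FPKM in SAS, against 36.07, 33.83 and 33.46 FPKM in vehicle. Every SAS library was above every vehicle library, yet the difference did not pass (fold 1.10, 95% interval 1.01 to 1.2, limma adjusted p = 0.0652). Irf7, its interferon-inducible relative, was at 0.08 to 0.18 FPKM over all libraries and below the filter. Stat2 averaged 1.42 ± 0.112 FPKM in SAS and 1.56 ± 0.20 FPKM in vehicle. Irf9, its DNA-binding partner, averaged 1.47 ± 0.165 FPKM in SAS and 1.30 ± 0.0854 FPKM in vehicle, and neither passed.

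The cytosolic sensors of viral RNA were both low. Ddx58, which encodes RIG-I, had 0.78, 0.67 and 0.77 FPKM in SAS, against 0.40, 0.40 and 0.39 FPKM in vehicle. The vehicle libraries were nearly equal, and every SAS library lay above them (limma log2 fold change 0.32, SE 0.06, adjusted p = 0.00212). The mean of Ddx58 reached 0.5 FPKM in SAS but not in vehicle, so the gene entered the test through the group where it was higher. Its log2 fold change was 0.756 with a pseudocount of 0.1 in place of 1. Ifih1, which encodes MDA5, averaged 0.19 ± 0.0458 FPKM in SAS and 0.223 ± 0.0231 FPKM in vehicle and was not tested.

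Among effector genes, 3 rose, 1 fell and 3 of the 7 tested did not pass (57.1% passed, against 37.4% of all genes tested, a difference that was not tested on so few genes). Ifi27, an interferon-inducible gene of the ISG12 family, had 32.27, 30.23 and 28.85 FPKM in SAS, against 21.55, 20.41 and 23.21 FPKM in vehicle. The groups were well apart (limma log2 fold change 0.47, SE 0.067, adjusted p = 0.000355). Rsad2, which encodes the antiviral radical SAM enzyme viperin, had 1.43, 1.44 and 1.56 FPKM in SAS, against 0.95, 1.01 and 1.27 FPKM in vehicle. The groups did not overlap, with vehicle library 3 nearest to SAS (limma log2 fold change 0.26, SE 0.074, adjusted p = 0.0186). Its call was lost without vehicle replicate 1 (adjusted p = 0.0855), without vehicle replicate 2 (0.0618), without SAS replicate 3 (0.0613) and with no filter (0.0504).

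Ifi35, whose product binds the interferon-induced protein NMI, had 7.22, 7.56 and 7.59 FPKM in SAS, against 6.89, 6.26 and 5.77 FPKM in vehicle. The groups came close but did not overlap (limma log2 fold change 0.21, SE 0.074, adjusted p = 0.0416). This call was lost without vehicle replicate 2 (adjusted p = 0.0978) or 3 (0.131), without SAS replicate 2 (0.0927) or 3 (0.109), with no filter (0.0808), with libraries rescaled to a common sum (0.0627) and with array weights (0.0796). Ifit2 had 1.51, 1.79 and 1.63 FPKM in SAS, against 2.50, 2.50 and 2.20 FPKM in vehicle. All SAS libraries were below all vehicle libraries (limma log2 fold change -0.36, SE 0.072, adjusted p = 0.00273).

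The tested relative of Ifit2 did not pass, and another was too low to test. Ifit3, whose product pairs with IFIT proteins on foreign RNA, averaged 0.59 ± 0.125 FPKM in SAS and 0.547 ± 0.0802 FPKM in vehicle and did not pass. Ifit1, which binds viral RNA caps, had 0.04, 0.04 and 0.02 FPKM in SAS, against 0.07, 0.18 and 0.10 FPKM in vehicle. Its groups did not overlap, but at this level it was below the filter, and with no filter it gave an adjusted p of 0.098. Reads shared by these similar genes could have been split between them.

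Bst2, which encodes tetherin and holds budding virus particles at the cell surface, had 28.72, 29.42 and 32.85 FPKM in SAS, against 30.84, 32.52 and 31.14 FPKM in vehicle. The groups overlapped (fold 0.963, 95% interval 0.874 to 1.06, limma adjusted p = 0.526). The exonuclease gene Isg20 averaged 0.87 ± 0.0954 FPKM in SAS and 0.773 ± 0.0709 FPKM in vehicle and did not pass. Oasl2, an oligoadenylate synthetase relative, was at 0.01 to 0.08 FPKM. Ifi44 was listed at 0 in every library except vehicle library 1, at 0.01 FPKM.

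**Figure D3:**
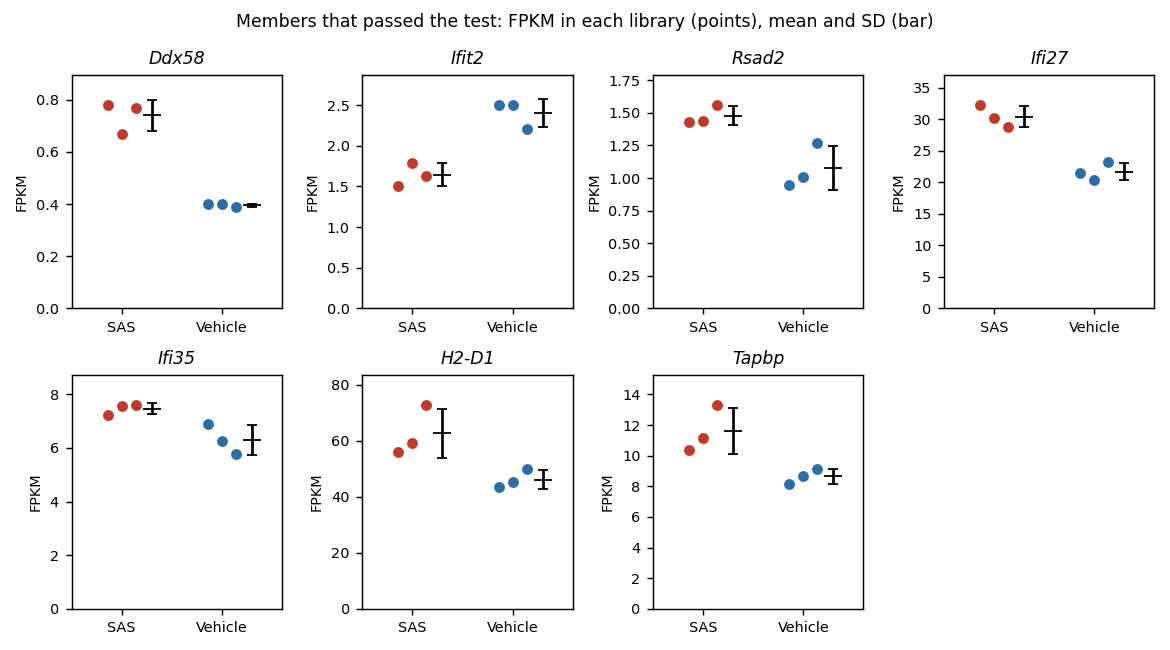
FPKM (y axes from 0, a scale for each gene) of the 7 members that passed the test, with SAS libraries in red, vehicle libraries in blue, and black bars for the mean and SD of 3 libraries. SAS points lie above all vehicle points for Ddx58, Rsad2, Ifi27, Ifi35, H2-D1 and Tapbp and below them for Ifit2.

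The ubiquitin-like modifier gene Isg15 did not pass, at 2.60, 1.89 and 1.93 FPKM in SAS against 1.23, 2.31 and 1.99 FPKM in vehicle. The single low value was that of vehicle library 1. Usp18, which removes ISG15 from proteins and restrains the type I receptor, was at 0.08 to 0.21 FPKM. Trim25, the ubiquitin ligase that acts with RIG-I, averaged 1.47 ± 0.186 FPKM in SAS and 1.21 ± 0.173 FPKM in vehicle (fold 1.12, 95% interval 0.989 to 1.27). Parp9 and Dtx3l, whose products form a complex of an ADP-ribosyltransferase and a ubiquitin ligase, averaged 0.727 ± 0.0473 and 0.557 ± 0.0814 FPKM in SAS, against 0.863 ± 0.125 and 0.567 ± 0.0643 FPKM in vehicle, and did not pass. Parp14, a further ADP-ribosyltransferase, was at 0.09 to 0.14 FPKM.

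To set the sequence beside these values, the promoters of RefSeq (build GRCm38.p6, 250 bases before to 50 after each annotated start) were searched on both strands for the core of the interferon-stimulated response element, written as a pair of GAAA blocks with 2 free bases between them. A promoter was present for 34 of the 40 members, and 11 of these held this core, against 3.99% of 27025 genes with a promoter. They were Stat2, Isg15, Ifih1, Ddx58, Ifit1, Ifit3, Rsad2, Bst2, B2m, H2-T23 and Erap1. Of the 6 members with a promoter that passed the test, Ddx58 and Rsad2 held it. The 80-base windows below show it in these 2 and in Isg15 and Ifit1, which hold several copies and did not pass or were too low to test. Capitals mark the matches, on either strand. They lie at chr12:26456528-26456607 on the minus strand for Rsad2, chr4:40239779-40239858 (minus) for Ddx58, chr4:156200846-156200925 (minus) for Isg15 and chr19:34640759-34640838 (plus) for Ifit1.
Rsad2: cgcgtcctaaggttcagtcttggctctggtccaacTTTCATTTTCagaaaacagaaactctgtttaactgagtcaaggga
Ddx58: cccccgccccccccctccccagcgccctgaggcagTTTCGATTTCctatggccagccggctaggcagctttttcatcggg
Isg15: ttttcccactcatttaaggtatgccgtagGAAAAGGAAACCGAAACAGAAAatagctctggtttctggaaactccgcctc
Ifit1: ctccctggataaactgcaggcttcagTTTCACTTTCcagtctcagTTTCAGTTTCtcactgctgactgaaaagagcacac

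Isg15 thus held 3 overlapping copies and Ifit1 held 2 separate ones. The GAS letters TTCNNNGAA were in the promoters of 7 members, Ifnar1, Ifnar2, Ifit2, Isg20, Bst2, Ifi35 and Psmb8, against 9.55% of all genes with a promoter. A match is a description of the letters and no evidence of binding. Looser forms of these elements were not searched, so a promoter without a match is not shown to lack the element.

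Among the messages of the class I molecule itself, H2-D1 rose, while the light chain gene B2m and the other heavy chain members did not pass. H2-D1, a classical heavy chain, had 56.19, 59.40 and 72.71 FPKM in SAS, against 43.36, 45.23 and 49.89 FPKM in vehicle. Every SAS library was above every vehicle library, and SAS library 3 was the highest (limma log2 fold change 0.43, SE 0.09, adjusted p = 0.0036). Without SAS replicate 3 the log2 fold change was 0.32 and still passed (adjusted p = 0.00665). SAS library 3 was also the highest SAS library for 7 of the 8 melanocyte markers, for 35.7% of tested members and for 28.3% of all genes tested.

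H2-K1, the other classical heavy chain of this strain, had 11.12, 11.64 and 14.16 FPKM in SAS, against 8.61, 7.82 and 12.92 FPKM in vehicle. Vehicle library 3 lay inside the SAS range (limma log2 fold change 0.33, SE 0.15, adjusted p = 0.103). H2-K1 passed without vehicle replicate 3 (adjusted p = 0.00346), with a replicate block (0.0112) and with array weights (0.0137). H2-T23, which encodes the nonclassical Qa-1 that presents leader peptides to natural killer cell receptors, averaged 4.35 ± 0.684 FPKM in SAS and 5.07 ± 0.698 FPKM in vehicle (fold 0.88, 95% interval 0.746 to 1.04). Class I heavy chain genes are near-identical in parts, so the split of their reads between H2-D1, H2-K1 and H2-T23 is uncertain.

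B2m, which encodes the light chain of every class I molecule, was the most abundant member. It had 144.05, 110.06 and 135.10 FPKM in SAS, against 124.33, 151.64 and 175.57 FPKM in vehicle. The groups overlapped, and the vehicle libraries spread widely (fold 0.866, 95% interval 0.721 to 1.04, limma adjusted p = 0.195). B2m passed, as lower in SAS, without vehicle replicate 1 (log2 fold change -0.338, adjusted p = 0.0384). The summed level of H2-D1, H2-K1 and H2-T23 was 72.2, 74.6 and 91.4 FPKM in SAS, against 57.3, 57.3 and 68.4 FPKM in vehicle. The ratio of B2m to that sum, chosen after the values were seen and not tested, was 1.99, 1.47 and 1.48 in SAS, against 2.17, 2.64 and 2.57 in vehicle. The summed message of these heavy chain genes, most of it H2-D1, was thus higher relative to B2m in every SAS library than in any vehicle library. Other heavy chain genes were left out of the sum. Of these, H2-T22 rose to 15.5 ± 0.422 FPKM in SAS, against 11.8 ± 0.907 FPKM in vehicle (limma adjusted p = 0.00171). H2-Q4, at 7.76 ± 1.22 FPKM in SAS and 6.81 ± 0.806 FPKM in vehicle, did not pass.

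**Figure D4:**
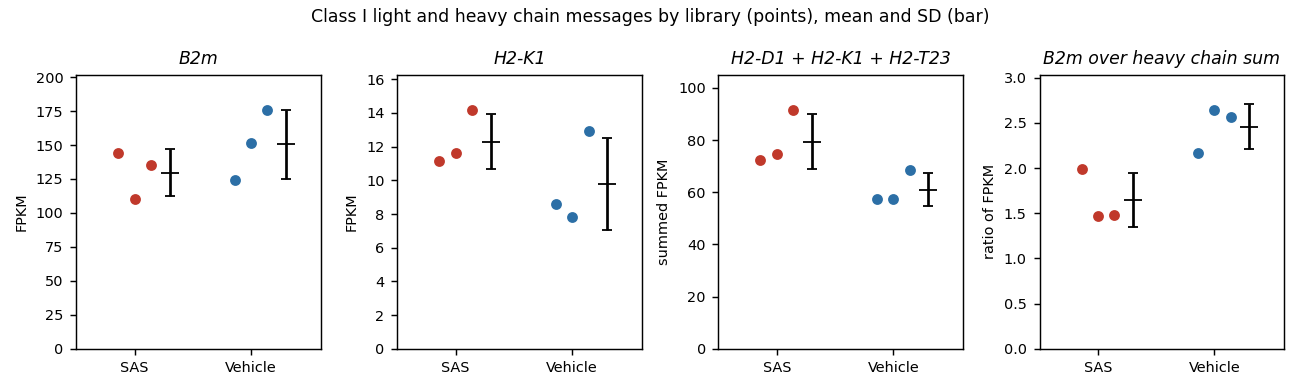
FPKM of B2m and H2-K1, summed FPKM of 3 heavy chain genes, and the ratio of B2m to that sum (y axes from 0) in SAS libraries (red) and vehicle libraries (blue), with black bars for mean and SD of 3 libraries. The groups overlap for B2m and H2-K1. The ratio, chosen after the values were seen and not tested, is 1.47 to 1.99 in SAS and 2.17 to 2.64 in vehicle.

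The promoters of H2-D1, H2-K1 and B2m hold an NF-kB type element known from the enhancer of class I genes, searched on both strands as GGG, 2 free bases, TT, 1 free base and CC. This pattern was in 5 of the 34 member promoters, also in Ifngr2 and Ifit1, and in 5.48% of all genes with a promoter. The windows below show how alike the promoters of H2-D1 and H2-K1 are: they share 78 of 80 bases. H2-D1 passed the test and H2-K1 did not, but their log2 fold changes were 0.43 and 0.33. A difference between these genes was not tested. The B2m window holds the response element core just before the NF-kB type letters. The H2-D1 and H2-K1 promoters did not match that core as searched, which does not show that a looser form of the element is absent. Capitals mark the matches. The windows lie at chr17:35262888-35262967 (plus) for H2-D1, chr17:34000414-34000493 (minus) for H2-K1 and chr2:122147519-122147598 (plus) for B2m.
H2-D1: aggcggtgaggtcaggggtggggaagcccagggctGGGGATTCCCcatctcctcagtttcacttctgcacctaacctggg
H2-K1: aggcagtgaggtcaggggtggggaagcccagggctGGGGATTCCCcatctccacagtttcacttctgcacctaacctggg
B2m: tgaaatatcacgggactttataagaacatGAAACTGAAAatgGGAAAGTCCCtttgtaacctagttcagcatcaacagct

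Of the genes that load peptides, Tapbp rose. Tapbp, which encodes the bridge between class I and the TAP transporter, had 10.38, 11.14 and 13.29 FPKM in SAS, against 8.12, 8.69 and 9.14 FPKM in vehicle. The groups did not overlap, and SAS library 3 was again the highest (limma log2 fold change 0.38, SE 0.088, adjusted p = 0.00611). Without SAS replicate 3 it still passed (log2 fold change 0.286, adjusted p = 0.0218).

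The transporter genes were low. Tap1 averaged 0.767 ± 0.162 FPKM in SAS and 0.687 ± 0.133 FPKM in vehicle and did not pass. Tap2 had 0.53, 0.56 and 0.71 FPKM in SAS, against 0.36, 0.34 and 0.37 FPKM in vehicle. Its groups did not overlap, but its mean of 0.478 FPKM fell just below the filter. With no filter it gave a log2 fold change of 0.24 (limma adjusted p = 0.0215). Erap1, the aminopeptidase that trims peptides in the endoplasmic reticulum, averaged 0.373 ± 0.0709 FPKM in SAS and 0.45 ± 0.09 FPKM in vehicle and was not tested.

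The immunoproteasome subunits replace constitutive ones when cells meet interferon, and 2 of the 3 were near 0. Psmb8 was listed at 0 in every library except vehicle library 3, at 0.02 FPKM. Psmb9 had 0.22, 0.11 and 0.36 FPKM in SAS, against 0.07, 0.19 and 0.07 FPKM in vehicle, which overlapped. Psmb10 stood much higher, at 12.80, 12.66 and 12.46 FPKM in SAS, against 13.41, 14.11 and 13.87 FPKM in vehicle. Every SAS library was below every vehicle library, but the difference did not pass (fold 0.922, 95% interval 0.843 to 1.01, limma adjusted p = 0.14). Their constitutive counterparts Psmb5, Psmb6 and Psmb7 lay between 216.87 and 358.02 FPKM over all libraries, and none passed. Psmb10 was 3.58, 4.42 and 4.26% of Psmb7 in SAS, against 4.36, 4.70 and 4.34% in vehicle, and Psmb9 was at most 0.141% of Psmb6 in any library. Nlrc5, the transactivator that drives class I genes in lymphocytes, was at 0.02 to 0.04 FPKM in all 6 libraries.

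The members were set beside further genes of the same pathways. Of 45 tested interferon-stimulated genes outside the members, 10 rose and 9 fell (42.2% against 37.4% of all genes tested; median log2 fold change -0.015 against -0.014). The chemokine genes Cxcl10 and Ccl5 fell, to 15.8 ± 1.27 FPKM in SAS against 29.4 ± 1.32 FPKM in vehicle and to 1.80 ± 0.466 FPKM in SAS against 3.25 ± 0.205 FPKM in vehicle. The mitochondrial exoribonuclease gene Pnpt1 fell to 3.28 ± 0.585 FPKM in SAS, against 5.45 ± 0.119 FPKM in vehicle. Parp10, an ADP-ribosyltransferase gene, rose to 4.56 ± 0.33 FPKM in SAS, against 3.06 ± 0.129 FPKM in vehicle. These genes did not move one way, with Cxcl10 at a log2 fold change of -0.86 and Parp10 at 0.45 (limma adjusted p = 9.04e-06 and 0.000688). Uba7, counted among those that rose, reached the filter in SAS alone. Gbp2, counted among those that fell, reached it in vehicle alone. Each thus entered the test through the group where it was higher.

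Of 27 tested genes of nucleic acid sensing and interferon induction, 7 rose and 6 fell (48.1% against 37.4% of all genes tested; median log2 fold change 0.03). Unc93b1, which carries nucleic acid sensing Toll-like receptors to endosomes, rose to 12.0 ± 1.65 FPKM in SAS, against 6.26 ± 0.634 FPKM in vehicle (limma log2 fold change 0.84, SE 0.096, adjusted p = 9.52e-05). Ticam1, the adaptor TRIF, rose to 18.5 ± 0.345 FPKM in SAS, against 11.8 ± 0.191 FPKM in vehicle. The kinase gene Ikbke, whose product phosphorylates IRF3, rose to 6.13 ± 0.39 FPKM in SAS, against 4.17 ± 0.272 FPKM in vehicle. Rnaseh2b, a subunit of an enzyme that removes RNA from DNA, fell to 7.80 ± 1.56 FPKM in SAS, against 10.8 ± 1.37 FPKM in vehicle. Its groups overlapped (limma adjusted p = 0.0174). Of 21 interferon genes, only Ifnz had a row, at 0.23, 0 and 0.26 FPKM in SAS and listed at 0 in vehicle, and the others were not analysed here.

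Of 26 further tested genes of the class I list, 7 rose and 5 fell (46.2% against 37.4% of all genes tested; median log2 fold change 0.02). H2-Ke6, which lies in the MHC but encodes a steroid and fatty acid dehydrogenase, rose to 30.9 ± 1.07 FPKM in SAS, against 21.2 ± 0.717 FPKM in vehicle. The neonatal Fc receptor gene Fcgrt rose to 16.2 ± 2.04 FPKM in SAS, against 11.5 ± 1.64 FPKM in vehicle. Mr1, which presents vitamin B metabolites, rose to 3.88 ± 0.178 FPKM in SAS, against 2.63 ± 0.0666 FPKM in vehicle, and the chaperone gene Calr rose 1.37-fold. Of these, Calr alone encodes a part of the classical peptide-loading complex. Of 3 tested MHC class II genes, 1 rose (33.3% against 37.4% of all genes tested). It was Cd74, the invariant chain, at 0.697 ± 0.10 FPKM in SAS against 0.313 ± 0.0404 FPKM in vehicle. H2-DMa and H2-DMb1 did not pass (limma adjusted p = 0.395 and 0.0697). The transactivator Ciita was at most 0.01 FPKM in any library. Cd74 was named after its values were seen and reached the filter in SAS alone. It rose beside the macrophage markers Cd68 and Lyz2, whose part in this was not tested.

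Of 21 tested inhibitors of interferon and STAT signalling, 3 rose and 4 fell (33.3% against 37.4% of all genes tested; median log2 fold change -0.061). Pdlim2, a ligase for STAT proteins, fell to 6.76 ± 0.275 FPKM in SAS, against 9.79 ± 0.531 FPKM in vehicle. Nlrx1, a mitochondrial regulator of antiviral signalling that is also in the sensing list, rose to 2.44 ± 0.05 FPKM in SAS, against 1.71 ± 0.18 FPKM in vehicle. The phosphatase gene Ptpn6 rose to 9.83 ± 0.782 FPKM in SAS, against 7.58 ± 0.36 FPKM in vehicle, and the IRF2 cofactor gene Irf2bp2 fell to 11.6 ± 0.924 FPKM in SAS, against 14.5 ± 1.29 FPKM in vehicle. None of these lists was tested as a whole.

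**Figure D5:**
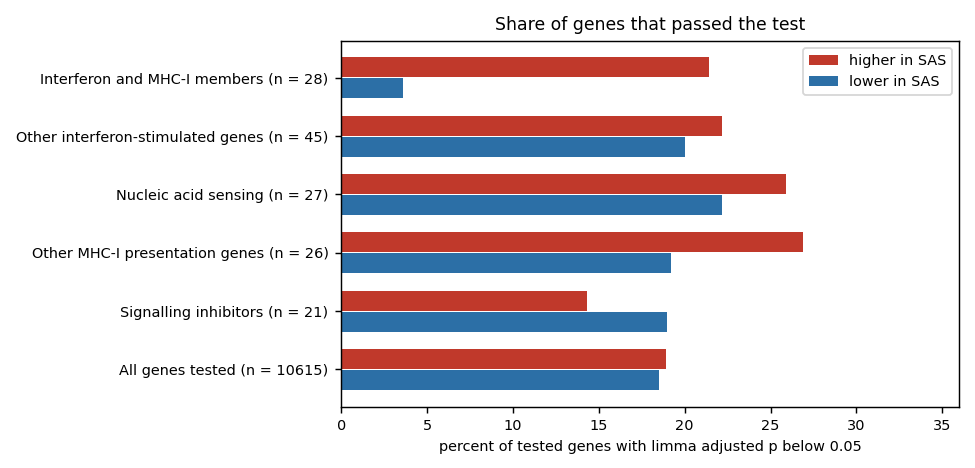
Percent of tested genes that rose (red) and that fell (blue) in SAS at a limma adjusted p below 0.05, for the members, 4 lists of related genes and all genes tested. The share of members that rose is 21.4% against 18.9% of all genes, and the share that fell is 3.57% against 18.5%.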

How the data were processed

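Total RNA of B16F10 cells was sequenced on BGISEQ-500, per the labels' protocols. FPKM values deposited by the authors came in 1 table, with 1 column per library, per the file headers. The submitters' processing notes list FastQC, HISAT and Bowtie2 with no version. No build, annotation or FPKM program was named (not given in the sources used here). Columns named 24 h were taken as SAS, which alone has that label, and columns named 0 h as vehicle, by elimination. The last number was taken as the replicate. Of 16315 identifiers, 16206 (99.3%) matched a symbol of RefSeq GRCm38.p6.

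FPKM are not counts, so limma 3.58.1 in R 4.3.3 was fitted with an intensity trend to log2(FPKM + 1) of the 10615 genes that averaged 0.5 FPKM or more, and p-values were adjusted over all of them by Benjamini-Hochberg. The fit was tested on simulated data. Labels do not give separate cultures, so p-values reflect only how these libraries vary, possibly for technical reasons. Members and lists were chosen with earlier results of these data known. All members are accounted for. Some genes outside the members are not reported here. Members that passed, and others averaging at least 20 FPKM, have values per library, as do some further members chosen after their values were seen. In each related list up to 4 genes that passed are named, by absolute log2 fold change. Tyk2, H2-T22, H2-Q4, Uba7, Gbp2, H2-DMa and H2-DMb1 were named besides, after their values were seen. Alternatives were other pseudocounts, filters, scalings and variance models, a replicate block and each library left out. Further steps used matplotlib 3.10.9, pandas 2.3.3 and numpy 2.4.6 under Python 3.11.15.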

Additional observations from a re-analysis of the deposited data

How the results depend on the processing

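Calls of Ddx58, Ifit2, Ifi27, H2-D1 and Tapbp held in every alternative that tested them, with log2 fold changes of 0.296 to 0.756, -0.521 to -0.327, 0.427 to 0.516, 0.32 to 0.511 and 0.286 to 0.454, but Ddx58 and Ifit2 were not tested at a mean of at least 5 FPKM. The limma adjusted p came close to 0.05 for H2-D1, at 0.0478 with no filter, and for Tapbp, whose highest over the alternatives was 0.0471. Calls of Rsad2 and Ifi35 were lost in 4 of 16 and 7 of 17 alternatives. The count of members that rose was 4 to 7 over all alternatives, against 6 as reported. The count that fell was 1 to 2 with 1 library left out, the second being B2m without vehicle replicate 1, and 0 at a mean of at least 5 FPKM, where Ifit2 was not tested. At that filter, which leaves 6987 of 10615 genes, the other interferon-stimulated genes gave 4 that rose and 5 that fell (10 and 9 as reported), the class I list 3 that fell (5) and the inhibitors 1 that rose (3). With no filter the inhibitors gave 1 that fell (4), and the cause was not tested. With 1 library left out, genes that fell numbered 3 to 6 in the sensing list and 1 to 4 among inhibitors, both lowest without vehicle replicate 2. Over all genes, those fits gave 1500 to 1950 that rose and 1334 to 1899 that fell.

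Signs turned only for members that never passed: Ifngr1 with array weights (0.0422), without vehicle replicate 3 (0.0216) and without SAS replicate 1 (0.0133; leave-one-out range -0.138 to 0.0216), Ifngr2 without vehicle replicate 1 (-0.0127) and SAS replicate 2 (-0.0197; range to 0.047), Isg15 without vehicle replicate 1 (-0.0102; range to 0.275), Ifit3 without SAS replicate 1 (-0.00741; range to 0.103), Dtx3l without vehicle replicate 1 (0.0237), SAS replicate 1 (0.00682) and SAS replicate 3 (0.0164; range -0.0524 to 0.0237), and Tap1 without SAS replicate 3 (-0.00357; range to 0.126). Whether replicate numbers pair the libraries was not settled. Deviations of same-numbered libraries correlated at -0.0802, 0.145 and 0.234, and 3 of 6 libraries correlated best with their own number. With the replicate block, 2187 genes rose and 2158 fell, 7 members rose and 1 fell, and H2-K1 passed. Depth in fragments is unknown, and values below 0.5 FPKM given to 2 decimals limit what can be said of the 12 members left out of the test.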
